A study of Homo sapiens with 6 samples.

Results

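Transcripts of glycolysis and of the response to low oxygen were compared between KM12 cells that overexpressed CDO1 and mock KM12 cells. The group was set by a list of 37 gene symbols, and all 37 have a row among the 27134 genes of the deposited table. KM12, an established line, comes from a human colorectal cancer. CDO1 is cysteine dioxygenase type 1, the enzyme that oxidises cysteine to cysteine sulfinate. There were 3 libraries of cells labelled as overexpressing CDO1 and 3 of mock cells labelled as controls, all at passages 10 to 15. The labels name no promoter, vector or clone, no oxygen level and no drug treatment, and nothing tells whether separate cultures were sampled. P-values here therefore rest on the spread among 3 libraries a group, and that spread may be technical.

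Glycolysis turns glucose into pyruvate in the cytosol, and lactate dehydrogenase can reduce the pyruvate to lactate, which leaves the cell through monocarboxylate transporters. When oxygen is short, the prolyl hydroxylases of the EGLN family lose activity, the hypoxia-inducible factors HIF-1 and HIF-2 are no longer degraded, and they bind hypoxia response elements whose core is ACGTG or GCGTG. Their known targets include glucose transporters, most glycolytic enzymes, and genes for vessel growth, pH control and mitophagy. Another is the kinase PDK1, which keeps pyruvate from entering the citric acid cycle. Colorectal cancer lines commonly run glycolysis at a high rate even with oxygen present.

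Reads assigned to genes totalled 18544419 to 22198173 in the CDO1 libraries and 17516640 to 22159756 in the mock libraries. The values below are normalised counts, that is, reads per gene divided by the authors' size factor for the library. The overexpressed gene matched the labels, with 2484, 2336 and 2333 normalised counts in CDO1 replicates 1 to 3, against 68.1 in mock replicate 1 and 0 in mock replicates 2 and 3. In limma its adjusted p was 2.74e-07, and in the authors' deposited table it was not called, at a log2 fold change of 0.09 (adjusted p = 0.416). The 8 markers of colon epithelium summed to 192960.0 to 206788 normalised counts per CDO1 library and 143919 to 152528 per mock library. Those epithelial sums did not overlap, and their part in the results below was not tested. Single epithelial markers averaged from 301 to 104773 over the 6 libraries, so the sums mostly follow the most abundant. Of markers of other cell types, 1 of 4 for leukocytes, 2 of 4 for fibroblasts and 3 of 3 for endothelium had a row, and none of these was at 0 in all libraries. The leukocyte marker CD79A stood at 2.76 to 5.47 in the CDO1 libraries and 3.39 to 14.3 in the mock libraries. Endothelial markers summed to 17.7 to 21.1 in the CDO1 libraries and 1.95 to 93.2 in the mock libraries. The fibroblast markers COL1A1 and PDGFRB had lower sums in every CDO1 library, at 130.4 to 151 in the CDO1 libraries and 204 to 293 in the mock libraries.

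The glycolysis and hypoxia genes did not move as one. In the CDO1 libraries 9 rose, 6 fell and 21 did not pass, out of 36 tested, at an adjusted p under 0.05 in limma on log2 of the normalised count plus 1. The risers were the glucose transporter SLC2A3, the kinases PDK1 and HK2, the hydroxylases EGLN3 and P4HA1, the mitophagy receptor BNIP3L, the lactate transporter SLC16A1, and the enzymes PGK1 and LDHA. Those that fell were BNIP3, ALDOC, ENO2, ADM, PFKFB4 and SLC2A1. Changes were small, from 1.13-fold to 1.47-fold higher in means among the risers and from 1.18-fold to 2.19-fold lower among those that fell. In bulk RNA, a lower level per cell and fewer cells with the transcript cannot be told apart.

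Over all genes tested, 24% passed (11.3% upward and 12.7% downward in the CDO1 libraries), against 41.7% of the 36 genes here, with 25% higher and 16.7% lower. Abundant transcripts pass more often. Of the 36 genes, 35 had a mean of at least 100, and over all genes at that level 36.3% passed. The share here was near that background. The counts by role given below stand beside the same 24% and 36.3%, and no role was tested as a group. Counted by overlap alone, 12 of the 37 genes had all CDO1 libraries above all mock libraries (background 18.3%), 8 had them all below (background 18.9%; 37.1% in either direction) and 17 overlapped. These backgrounds for overlap cover all genes tested, scarce ones included. No such share was taken among genes with a mean of at least 100, and the 37 include a gene that was not tested. The median log2 fold change was 0.03 over the 36 genes tested here and -0.00348 over all genes tested. CA9, the carbonic anhydrase that is a classical HIF target, was the gene left untested, with 0 reads in each CDO1 library and 0, 2 and 1 reads in mock replicates 1 to 3, all at or under the 3 reads that a count of 0 allows.

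**Figure D1:**
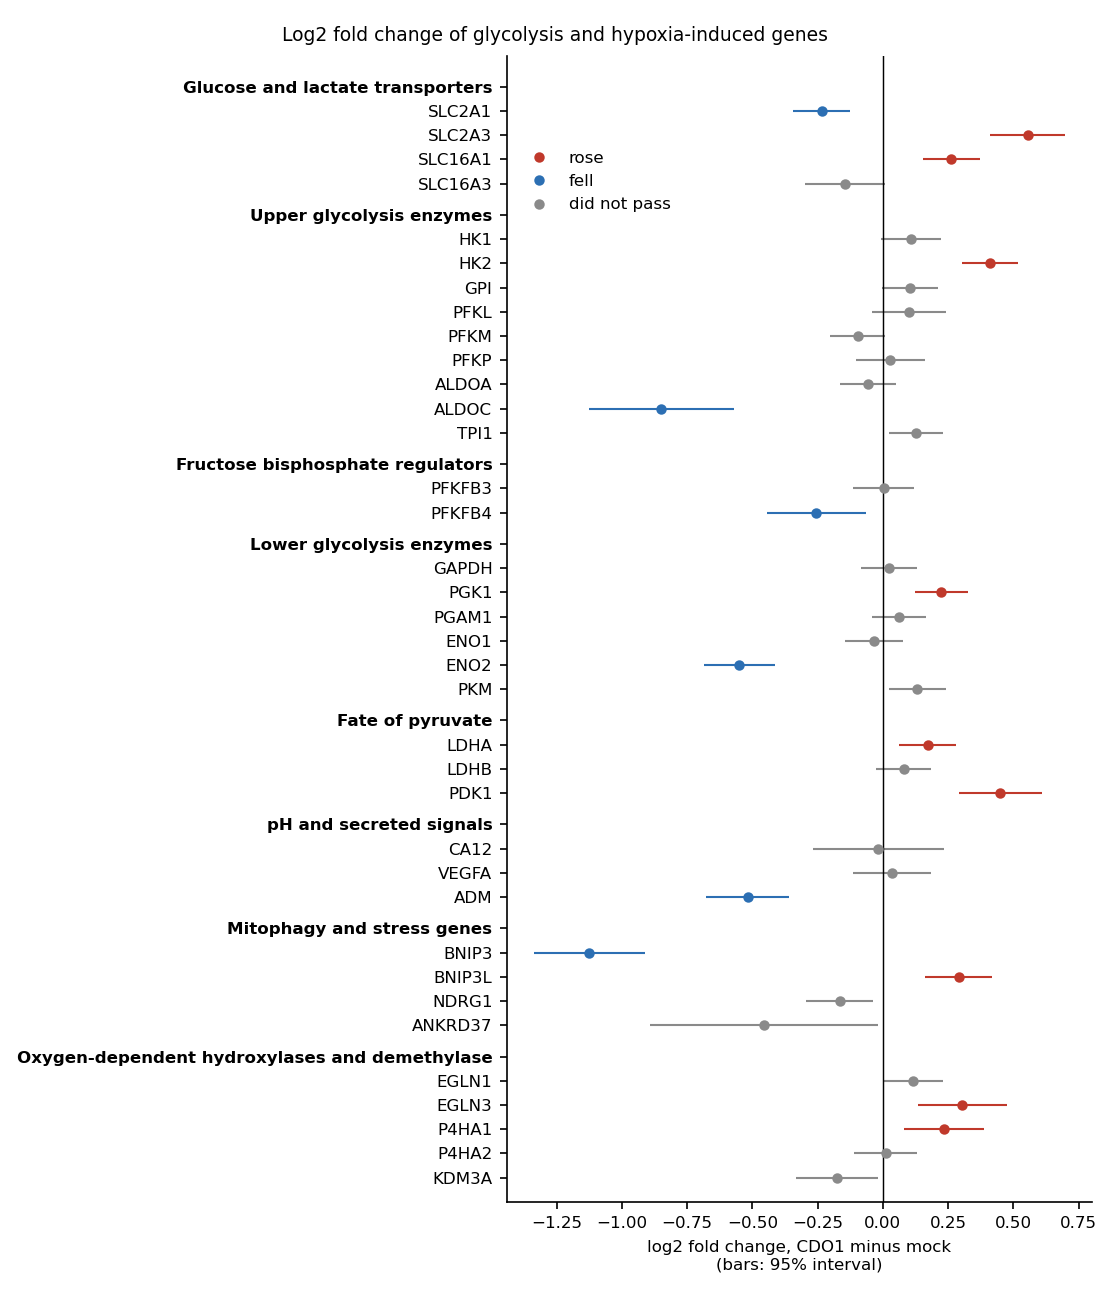
Log2 fold change (x axis, CDO1 minus mock, log2 of the normalised count plus 1) of the 36 genes tested, grouped by role down the y axis, with the 95% interval from limma as bars. Colour gives the call, red for a rise, blue for a fall (adjusted p under 0.05) and grey for neither. BNIP3 lies farthest to the left at -1.12 and SLC2A3 farthest to the right at 0.56.

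Promoter sequence is shown for 3 genes that fell and 3 that rose, each a known HIF target, though they moved in opposite directions. All the windows shown hold ACGTG. The genes that fell and are not shown, SLC2A1, ADM and PFKFB4, hold no ACGTG in the 250 bases before the start. Among risers with a window that are not shown, LDHA and P4HA1 hold ACGTG and EGLN3 does not. The windows are the 250 bases before the RefSeq transcript start on GRCh38.p14, printed 5′ to 3′ on the strand of the gene, for BNIP3 at chr10:131981924-131982173 (minus strand), ALDOC at chr17:28576896-28577145 (minus strand), ENO2 at chr12:6914330-6914579 (plus strand), HK2 at chr2:74834920-74835169 (plus strand), PGK1 at chrX:78103998-78104247 (plus strand) and PDK1 at chr2:172555840-172556089 (plus strand). HK2 and PDK1 have 2 listed starts each, and the downstream one is shown, a choice made after its matches were seen. The upstream window of PDK1, not shown, holds no ACGTG and no GCGTG. That of HK2 holds 2 matches to ACGTG and 1 to GCGTG. Capitals mark ACGTG and GCGTG on either strand, so CACGT and CACGC are marked too.
BNIP3: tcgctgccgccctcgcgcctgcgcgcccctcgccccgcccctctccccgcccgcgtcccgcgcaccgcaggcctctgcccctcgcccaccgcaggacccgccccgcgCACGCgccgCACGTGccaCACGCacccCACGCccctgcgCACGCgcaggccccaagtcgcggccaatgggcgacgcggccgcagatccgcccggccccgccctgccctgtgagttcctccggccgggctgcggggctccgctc
ALDOC: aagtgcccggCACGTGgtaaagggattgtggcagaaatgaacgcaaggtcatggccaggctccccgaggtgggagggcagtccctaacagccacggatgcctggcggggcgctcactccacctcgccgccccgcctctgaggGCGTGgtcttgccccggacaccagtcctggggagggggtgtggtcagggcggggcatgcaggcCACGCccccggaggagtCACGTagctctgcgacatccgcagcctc
ENO2: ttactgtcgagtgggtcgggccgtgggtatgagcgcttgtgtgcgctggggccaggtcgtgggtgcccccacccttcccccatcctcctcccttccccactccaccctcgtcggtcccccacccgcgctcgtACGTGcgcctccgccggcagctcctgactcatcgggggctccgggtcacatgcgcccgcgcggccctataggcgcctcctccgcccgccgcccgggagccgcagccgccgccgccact
HK2: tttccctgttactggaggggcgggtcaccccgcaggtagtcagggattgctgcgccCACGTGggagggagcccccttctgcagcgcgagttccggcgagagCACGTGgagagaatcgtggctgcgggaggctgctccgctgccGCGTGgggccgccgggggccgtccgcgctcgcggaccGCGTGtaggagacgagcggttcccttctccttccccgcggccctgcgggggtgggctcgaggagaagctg
PGK1: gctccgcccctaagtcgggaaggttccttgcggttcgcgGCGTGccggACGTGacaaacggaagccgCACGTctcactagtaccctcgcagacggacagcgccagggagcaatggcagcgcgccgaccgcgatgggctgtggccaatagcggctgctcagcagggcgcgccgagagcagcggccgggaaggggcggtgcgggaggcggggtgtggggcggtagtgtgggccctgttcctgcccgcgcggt
PDK1: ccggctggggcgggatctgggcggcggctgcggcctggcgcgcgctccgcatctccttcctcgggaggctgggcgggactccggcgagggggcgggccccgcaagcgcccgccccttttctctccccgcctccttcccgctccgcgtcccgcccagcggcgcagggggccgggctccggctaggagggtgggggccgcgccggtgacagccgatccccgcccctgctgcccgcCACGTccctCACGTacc

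BNIP3 held 2 matches to ACGTG, which overlap each other in a CACGTG, and 4 to GCGTG. ALDOC held 3 and 2, and ENO2 1 and 0. Among the risers shown, HK2 held 4 and 2, PGK1 2 and 1, and PDK1 2 and 0. A CACGTG counts as 2 matches, 1 on each strand. RefSeq windows were found for 32 of the 37 genes, 59 windows in all, against 35116 windows for all 27305 genes listed. Counted per window, ACGTG was present in 22 of 59 (37.3%), against 18.5% of all windows, and GCGTG in 19 of 59 (32.2%), against 32.2%. Counted per gene, at least 1 window held ACGTG in 19 of 32 (59.4%), against 21.7% of all genes, and GCGTG in 16 (50%), against 36.2%. The glycolysis and hypoxia genes have more windows per gene than all genes, which can raise the share per gene. ACGTG was present in 5 of 6 risers with a window, 3 of 6 genes that fell and 10 of 19 that did not pass, and in the untested CA9. These counts take any window of a gene, and PDK1 enters them through its downstream window alone. These matches describe letters only, and factor binding was not measured.

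Of the 4 sugar and lactate transporters, 2 rose, 1 fell and 1 did not pass. SLC2A1 encodes GLUT1, the widespread glucose carrier (ENSG00000117394, GRCh38 chromosome 1, 42925375 to 42959176). It stood at 10302, 10479 and 10436 normalised counts in CDO1 replicates 1 to 3, against 12256, 13044 and 11488 in mock replicates 1 to 3. All 3 CDO1 libraries lay below all 3 mock libraries, and SLC2A1 fell with a log2 fold change of -0.23 ± 0.05 (SE, adjusted p = 0.00218). SLC2A3 encodes GLUT3, a glucose carrier of high affinity that is typical of neurons (ENSG00000059804, GRCh38 chromosome 12, 7919230 to 7936275). Its counts were 846, 787 and 805 in the CDO1 libraries, against 579, 515 and 566 in the mock libraries. The groups did not overlap, and SLC2A3 rose 1.47-fold, with a log2 fold change of 0.56 ± 0.07 (SE, adjusted p = 3.88e-06). The close paralog SLC2A14 may share reads with SLC2A3.

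SLC16A1 encodes MCT1, which carries lactate and pyruvate across the plasma membrane together with a proton. With 10106, 9214 and 9743 normalised counts in the CDO1 libraries, against 8289, 7699.9 and 8235 in the mock libraries, SLC16A1 rose without overlap, at a log2 fold change of 0.26 ± 0.05 (SE, adjusted p = 7.44e-04). SLC16A3 encodes MCT4, the lactate exporter of glycolytic cells. It had 6613, 7715 and 6833 in the CDO1 libraries, against 7774, 8819 and 6877 in the mock libraries. These values overlapped. Its log2 fold change of -0.15 ± 0.07 (SE, adjusted p = 0.169) had a 95% interval of -0.30 to 0.01. It was -0.23 (adjusted p = 0.00714 in limma) without mock replicate 3 and 0.00596 (adjusted p = 0.933) with each library's trend with GC content removed. The transcripts of SLC16A3 have a GC content of 65.6%, the highest here. CSNK1D, which overlaps SLC16A3 on the opposite strand, averaged 3804 over all libraries (log2 fold change -0.03, adjusted p = 0.793 in limma). Reads may be shared between these genes.

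Among the 9 enzymes from hexokinase to triosephosphate isomerase, 1 rose, 1 fell and 7 did not pass. HK2, the inducible hexokinase that traps glucose as glucose 6-phosphate (ENSG00000159399, GRCh38 chromosome 2, 74833981 to 74893359), had 3713, 3997 and 3968 normalised counts in the CDO1 libraries, against 2878, 3015 and 2895 in the mock libraries. Every CDO1 library was above every mock library, and HK2 rose 1.33-fold, at a log2 fold change of 0.41 ± 0.05 (SE, adjusted p = 4.65e-06). HK1, the constitutive hexokinase, averaged 2070.5 ± 53.2 in the CDO1 libraries and 1922 ± 87.8 in the mock libraries (SD, n = 3 each), with a log2 fold change of 0.11 ± 0.05 (SE, adjusted p = 0.175).

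ALDOC, the aldolase isozyme of brain (ENSG00000109107, GRCh38 chromosome 17, 28573115 to 28577264), had 88.8, 109 and 82.7 normalised counts in the CDO1 libraries, against 182, 152 and 172 in the mock libraries. The highest CDO1 library was below the lowest mock library, and ALDOC fell 1.80-fold, at a log2 fold change of -0.85 ± 0.13 (SE, adjusted p = 6.11e-05). Its locus is shared with ENSG00000258472, an annotated gene on the same strand with 122, 128 and 107 in the CDO1 libraries, against 153, 172 and 126 in the mock libraries (log2 fold change -0.32, adjusted p = 0.0861 in limma). How reads were split between the overlapping genes is not given in the sources used here. ALDOA, the main aldolase, stood at 28408 ± 474 in the CDO1 libraries, against 29589 ± 1168 in the mock libraries (SD, n = 3 each), with a 95% interval of -0.16 to 0.05 on the log2 fold change.

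The remaining upper enzymes had log2 fold changes between -0.10 for PFKM and 0.13 for TPI1. The phosphofructokinase subunits, which make up the committed step, did not pass, with 0.10 for PFKL (95% interval -0.04 to 0.24), -0.10 for PFKM (-0.20 to 0.01) and 0.03 for PFKP (-0.10 to 0.16). PFKL has transcripts with a GC content of 63.97%. It passed at 0.23 with the GC trend removed (adjusted p = 1.87e-05 in limma) and at 0.19 without mock replicate 2 (adjusted p = 0.012). In PFKM, all CDO1 libraries were below all mock libraries, and its fall passed with the GC trend removed (log2 fold change -0.12, adjusted p = 0.011 in limma). GPI, the isomerase that follows hexokinase, was at 0.10 (adjusted p = 0.168), and at 0.12 with the GC trend removed (adjusted p = 0.0088). TPI1, triosephosphate isomerase, had 18384, 19186 and 19264 in the CDO1 libraries, against 17364, 16934 and 17768 in the mock libraries. Those groups did not overlap, while its adjusted p was 0.0688 in limma, 0.0369 in edgeR and 0.0219 in DESeq2.

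**Figure D2:**
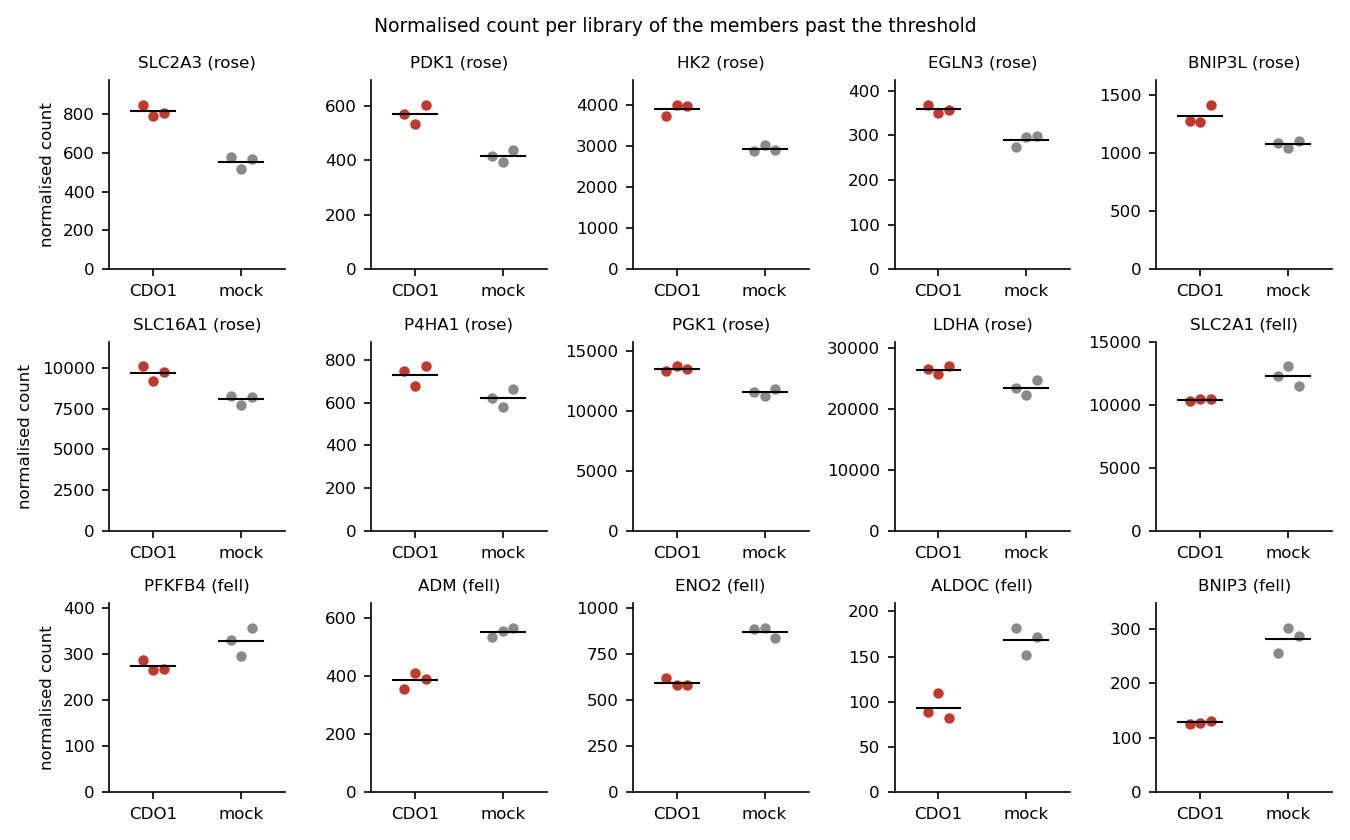
Normalised count (y axis, from 0) of the 15 genes past the threshold, with a point for each of 3 CDO1 libraries (red, left) and 3 mock libraries (grey, right) and a black line at each group's mean. The panels run from the largest rise, SLC2A3, to the largest fall, BNIP3, and in each of them the groups do not overlap.

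PFKFB3 and PFKFB4 make and break fructose 2,6-bisphosphate, the activator of phosphofructokinase. PFKFB4 had 288, 266 and 268 normalised counts in the CDO1 libraries, against 329.8, 296 and 357 in the mock libraries, and fell at a log2 fold change of -0.25 ± 0.09 (SE, adjusted p = 0.0462). The groups came close, with 288 in CDO1 replicate 1 and 296 in mock replicate 2. The call ended in DESeq2 (adjusted p = 0.111), in the authors' deposited table (adjusted p = 0.109) and without any 1 library other than mock replicate 2, where the adjusted p in limma lay between 0.0631 and 0.164. PFKFB3 averaged 1639 ± 61.8 in the CDO1 libraries and 1636 ± 49.3 in the mock libraries (SD, n = 3 each), and its 95% interval of -0.11 to 0.12 on the log2 scale held 0.

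Farther down the pathway, from GAPDH to pyruvate kinase, 1 of 6 enzymes rose, 1 fell and 4 did not pass. PGK1, which makes the first ATP of the pathway (ENSG00000102144, GRCh38 chromosome X, 77910739 to 78129296), had 13329.7, 13734 and 13516 normalised counts in the CDO1 libraries, against 11603, 11276 and 11860.4 in the mock libraries. The libraries parted by group, and PGK1 rose 1.17-fold, at a log2 fold change of 0.22 ± 0.05 (SE, adjusted p = 0.00147). ENO2, the neuron-type enolase and a common neuroendocrine marker (ENSG00000111674, GRCh38 chromosome 12, 6913745 to 6923698), had 623, 584 and 580.4 in the CDO1 libraries, against 889, 893 and 835 in the mock libraries. ENO2 fell 1.46-fold without overlap, at a log2 fold change of -0.55 ± 0.07 (SE, adjusted p = 2.25e-06). LRRC23, which overlaps it on the same strand, averaged 125 over the 6 libraries and had a log2 fold change of 0.13 (adjusted p = 0.562 in limma).

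ENO1, the main enolase, averaged 70004 ± 1684 in the CDO1 libraries and 71715 ± 1357 in the mock libraries (SD, n = 3 each), with a 95% interval of -0.15 to 0.08 on the log2 fold change. GAPDH, often used as a reference transcript, averaged 56996 ± 583 in the CDO1 libraries and 56019 ± 616 in the mock libraries (SD, n = 3 each), with a log2 fold change of 0.02 ± 0.05 (SE, adjusted p = 0.784). Its sign turned to -0.00155 with equal library totals. PGAM1, phosphoglycerate mutase, had 0.06 (adjusted p = 0.431). PKM, pyruvate kinase, had 73253, 73583 and 75938 in the CDO1 libraries, against 68197, 68088 and 66924 in the mock libraries. All CDO1 libraries of PKM were higher than all mock libraries by a log2 fold change of 0.13 ± 0.05 (SE, adjusted p = 0.0766), which passed in edgeR (adjusted p = 0.0179) and DESeq2 (adjusted p = 0.00658). The splice forms PKM1 and PKM2 are not separated in gene counts. GAPDH has 62 annotated pseudogenes and PGAM1 13, and those in the table held 0.0723% and 0.110% of the parent gene's mean count, so reads may have been exchanged.

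Of the 3 genes that set the fate of pyruvate, 2 rose and 1 did not pass. PDK1, pyruvate dehydrogenase kinase 1, which switches off the entry of pyruvate into the citric acid cycle (ENSG00000152256, GRCh38 chromosome 2, 172555373 to 172608669), had 569, 533 and 603 normalised counts in the CDO1 libraries, against 415, 394 and 438 in the mock libraries. PDK1 rose 1.37-fold, each CDO1 library above each mock library, at a log2 fold change of 0.45 ± 0.08 (SE, adjusted p = 1.45e-04). LDHA, the lactate dehydrogenase subunit that favours lactate formation, had 26654, 25780.1 and 27076 in the CDO1 libraries, against 23474, 22396 and 24792 in the mock libraries. It rose at a log2 fold change of 0.17 ± 0.05 (SE, adjusted p = 0.0211), and without 1 library its adjusted p in limma was 0.08 (CDO1 replicate 1), 0.115 (CDO1 replicate 3), 0.106 (mock replicate 1) and 0.0538 (mock replicate 2). LDHB, the subunit of aerobic tissues, averaged 28089 ± 707 in the CDO1 libraries and 26572 ± 901 in the mock libraries (SD, n = 3 each), a log2 fold change of 0.08 ± 0.05 (SE, adjusted p = 0.289).

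Of the hypoxia-induced genes for pH control and secreted signals, ADM fell and VEGFA and CA12 did not pass. ADM encodes adrenomedullin, a vasodilator peptide (ENSG00000148926, GRCh38 chromosome 11, 10304680 to 10307397). It had 357, 412 and 390.3 normalised counts in the CDO1 libraries, against 536, 555 and 568 in the mock libraries. The groups were well apart, and ADM fell 1.43-fold, at a log2 fold change of -0.52 ± 0.08 (SE, adjusted p = 3.10e-05). VEGFA, the main growth factor of vessels and the textbook HIF target, had 1119, 1236 and 1014 in the CDO1 libraries, against 1079.9, 1162 and 1039 in the mock libraries. These overlapped, with a 95% interval of -0.11 to 0.18 on the log2 fold change of 0.04. CA12, a membrane carbonic anhydrase, averaged 148 ± 17.97 in the CDO1 libraries and 149.7 ± 12.6 in the mock libraries (SD, n = 3 each), with an interval of -0.27 to 0.23.

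The largest change of the set was in BNIP3, which encodes a receptor on the outer mitochondrial membrane that recruits the autophagy machinery and is induced by HIF-1 (ENSG00000176171, GRCh38 chromosome 10, 131966455 to 131982013). BNIP3 had 126, 128 and 131 normalised counts in the CDO1 libraries, against 256, 302 and 287 in the mock libraries. The CDO1 libraries varied little (SD 2.59, n = 3), and the highest of them was below the lowest mock library. BNIP3 fell 2.19-fold, at a log2 fold change of -1.12 ± 0.10 (SE, adjusted p = 5.88e-08). GENCODE lists 39 BNIP3 pseudogenes, and the 6 in the table summed to 9.03% of its mean count, so its level is less certain than that of single-copy genes.

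BNIP3L, also called NIX, the closely related mitophagy receptor, had 1279.9, 1271 and 1419 in the CDO1 libraries, against 1091, 1048 and 1103 in the mock libraries. It moved the other way, and rose 1.22-fold at a log2 fold change of 0.29 ± 0.06 (SE, adjusted p = 0.0013). NDRG1, a stress gene induced by hypoxia and by loss of iron, had 909, 916 and 917 in the CDO1 libraries, against 1058, 1058 and 962 in the mock libraries. NDRG1 did not overlap between groups, and its log2 fold change of -0.17 ± 0.06 (SE, adjusted p = 0.0588) in limma passed in edgeR (adjusted p = 0.0372) and not in DESeq2 (adjusted p = 0.0869). ANKRD37, a small ankyrin repeat protein and HIF-1 target, was scarce, at 40.4, 56.9 and 31.2 in the CDO1 libraries, against 56.5, 60.5 and 55.4 in the mock libraries. Its log2 fold change of -0.46 ± 0.21 (SE, adjusted p = 0.128) was -0.68 without CDO1 replicate 2 (adjusted p = 0.0276 in limma). UFSP2, which overlaps ANKRD37 on the opposite strand, averaged 408 over all libraries (log2 fold change 0.05, adjusted p = 0.69 in limma). As the strand setting is not given, the genes may share reads.

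Of the 5 oxygen-dependent enzymes, 2 rose and 3 did not pass. EGLN3, a prolyl hydroxylase that marks HIF subunits for degradation and is itself a HIF target (ENSG00000129521, GRCh38 chromosome 14, 33924231 to 34462774), had 369, 350.3 and 356 normalised counts in the CDO1 libraries, against 275, 296 and 299.8 in the mock libraries. EGLN3 rose at a log2 fold change of 0.30 ± 0.08 (SE, adjusted p = 0.00911), and its adjusted p in limma was 0.05003 without CDO1 replicate 1 and 0.0647 without mock replicate 1. SPTSSA, annotated on the same strand across part of its span, was 1105 on average, with a log2 fold change of 0.17 (adjusted p = 0.104). EGLN1, the main HIF prolyl hydroxylase, had 1863, 1841 and 1979 in the CDO1 libraries, against 1767, 1759 and 1713 in the mock libraries. These did not overlap, at a log2 fold change of 0.12 ± 0.05 (SE, adjusted p = 0.134) that did not pass.

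P4HA1, a catalytic subunit of collagen prolyl 4-hydroxylase, had 746, 677 and 771 in the CDO1 libraries, against 622, 578 and 664 in the mock libraries, and rose at a log2 fold change of 0.23 ± 0.07 (SE, adjusted p = 0.0234). The lowest CDO1 library exceeded the highest mock library by little, and without 1 library the adjusted p in limma was 0.096 (CDO1 replicate 1), 0.131 (CDO1 replicate 3), 0.0702 (mock replicate 1) and 0.0735 (mock replicate 2). P4HA2, the other inducible subunit, averaged 1039.8 ± 19.9 in the CDO1 libraries and 1033 ± 20.01 in the mock libraries (SD, n = 3 each), a log2 fold change of 0.01 ± 0.06 (SE, adjusted p = 0.928). KDM3A, a histone demethylase induced by HIF-1, had 623, 539.7 and 614 in the CDO1 libraries, against 699, 620.3 and 688 in the mock libraries. Its groups overlapped, and its log2 fold change of -0.18 ± 0.08 (SE, adjusted p = 0.0987) was -0.24 with the GC trend removed (adjusted p = 0.00344 in limma) and -0.23 without mock replicate 2 (adjusted p = 0.0256).

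Pairs of related genes were also compared as shares, from normalised counts per kilobase of annotated exon, since the genes differ in length. BNIP3 made up 11.8, 12.04 and 11.2% of the sum of BNIP3 and BNIP3L in CDO1 replicates 1 to 3, against 24.2, 28.1 and 26.1% in mock replicates 1 to 3. In glucose uptake, SLC2A3 made up 7.71, 7.10 and 7.28% of SLC2A1 plus SLC2A3 in the CDO1 libraries, against 4.59, 3.86 and 4.77% in the mock libraries. HK2 supplied 59.1, 59.7 and 60.1% of the hexokinase pair in the CDO1 libraries, against 54.9, 53.9 and 54.7% in the mock libraries. These 3 shares did not overlap between groups.

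ALDOC and ENO2 were minor isozymes throughout. ALDOC was 0.388 ± 0.0622% of the aldolase pair in the CDO1 libraries and 0.670 ± 0.0736% in the mock libraries (SD, n = 3 each). ENO2 was 0.643 ± 0.0414% of the enolase pair in the CDO1 libraries and 0.916 ± 0.0277% in the mock libraries. LDHA, P4HA1 and EGLN3 also took larger shares of their pairs in all CDO1 libraries, by 1.39, 3.85 and 2.13 percentage points of the mean. The share of SLC16A1 overlapped between groups, at 62.9, 56.96 and 61.2% in the CDO1 libraries, against 54.2, 49.2 and 57.02% in the mock libraries. The 13 shares were compared by an exact permutation test over libraries, two-sided, whose smallest p for 3 against 3 is 0.1. The 8 shares without overlap reached it, with an adjusted p of 0.163 over the 13 shares, so none could pass.

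**Figure D3:**
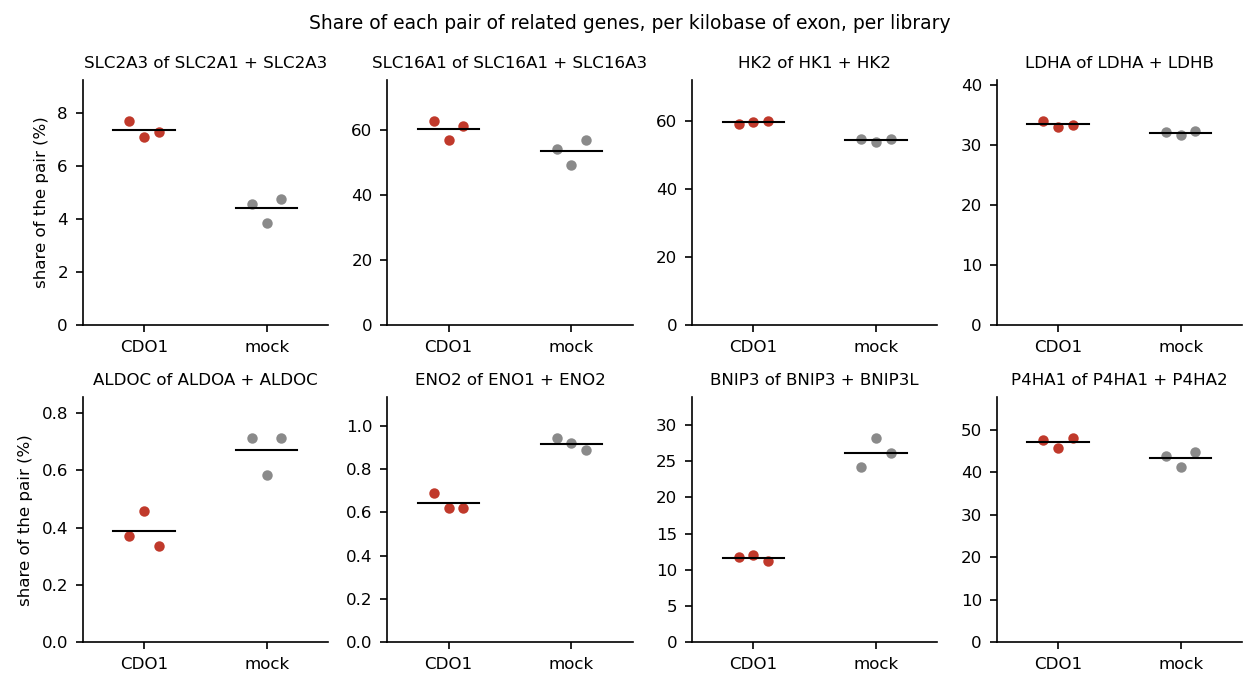
Share (y axis, percent, from 0) that the named gene takes of its pair, from normalised counts per kilobase of exon, with a point per library (red CDO1, left; grey mock, right) and a line at the mean. The BNIP3 share runs over 11.2 to 12.04% in the CDO1 libraries and 24.2 to 28.1% in the mock libraries, and of the 8 pairs shown only that of SLC16A1 and SLC16A3 overlaps between groups.

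Per kilobase of exon, ENO1 had the highest mean level of the 37 genes, at 29119.7 in the CDO1 libraries and 29832 in the mock libraries. GAPDH followed at 25628 in the CDO1 libraries and 25188 in the mock libraries, then PKM at 22421 in the CDO1 libraries and 20452 in the mock libraries, LDHB at 17710.4 in the CDO1 libraries and 16754 in the mock libraries and ALDOA at 11802 in the CDO1 libraries and 12293 in the mock libraries. Among the enzyme steps from glucose to lactate, each summed over the isozymes in the set of 37 alone, hexokinase had the lowest level, with HK2 at 655 in the CDO1 libraries and 493 in the mock libraries and HK1 at 443 in the CDO1 libraries and 412 in the mock libraries. The isozymes that fell were scarce, with ENO2 at 188 in the CDO1 libraries and 276 in the mock libraries and ALDOC at 45.9 in the CDO1 libraries and 82.8 in the mock libraries, and BNIP3 was at 44.9 in the CDO1 libraries and 98.6 in the mock libraries. Together, the 17 enzymes from hexokinase to lactate dehydrogenase held 1.78, 1.81 and 1.82% of all normalised counts in CDO1 replicates 1 to 3, against 1.76, 1.77 and 1.76% in mock replicates 1 to 3. This sum is a description and was not tested. Exon lengths pool the transcripts of a gene in the basic GENCODE annotation, so levels of genes with long unused exons are understated.

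**Figure D4:**
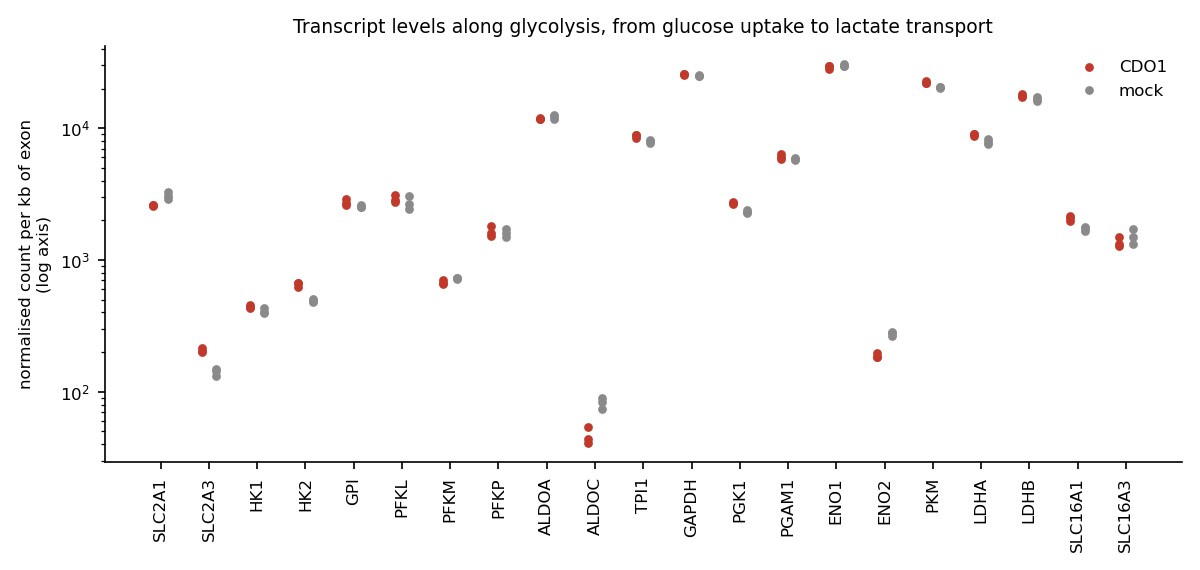
Normalised count per kilobase of exon (y axis, log scale) of the transporters and enzymes in the order of the pathway (x axis), with a point for each CDO1 library (red, left) and mock library (grey, right). ENO1 is highest, at 29119.7 in the CDO1 libraries and 29832 in the mock libraries on average, and ALDOC lowest, at 45.9 in the CDO1 libraries and 82.8 in the mock libraries.

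GC content moved with the direction of change. Risers had transcripts of 40.2 to 50.6% GC (median 44.7%), and genes that fell 50.9 to 58.7% (median 56.02%), so the ranges did not overlap. The median of all genes tested was 49.6%. Across the 36 genes tested the Spearman's rho of log2 fold change with GC content was -0.49, and over the 10926 genes whose mean reached 100 and whose GC content is known it was -0.24. Genes share libraries and are not independent replicates, so no p is given. Single libraries differed in this respect within groups, with a rho of -0.35, 0.00 and -0.29 between GC content and deviation from the gene mean in CDO1 replicates 1 to 3, against 0.21, 0.54 and -0.24 in mock replicates 1 to 3. With each library's GC trend removed, all 15 called genes passed in the same direction, and the counts were 13 that rose and 9 that fell. Calls over all genes also increased with this step, to 6392 against 5229 without it. Every riser had a smaller log2 fold change after this step. So, in size, did every gene that fell except BNIP3, which was at -1.16, against -1.12 without it. ENO2 was at -0.54, against -0.55, and SLC2A3 at 0.50, against 0.56. PGK1 was at 0.16, against 0.22, and LDHA at 0.11, against 0.17.

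**Figure D5:**
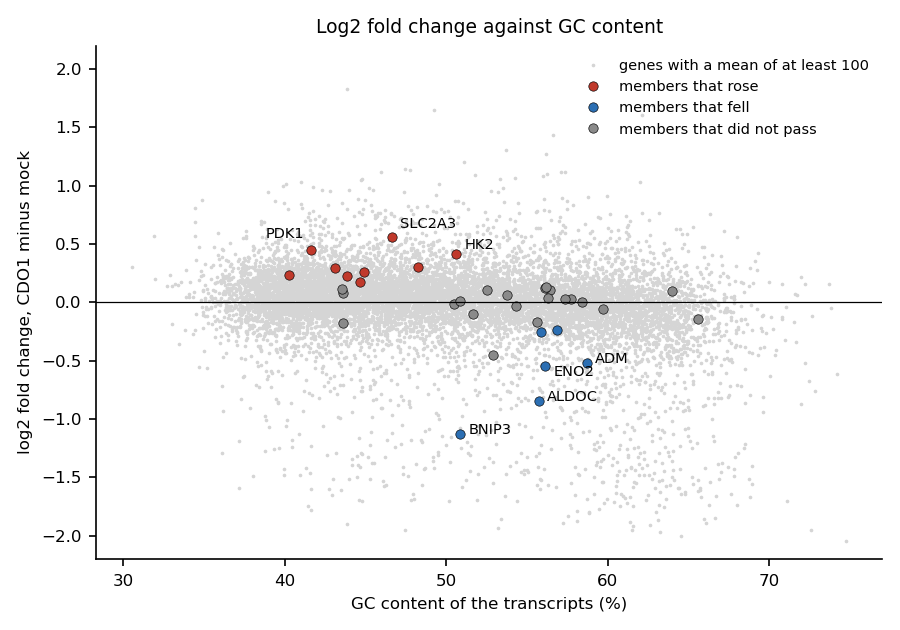
Log2 fold change (y axis, CDO1 minus mock) against the GC content of a gene's transcripts (x axis, percent) for 10926 genes whose mean reached 100 (light grey) and for the genes of glycolysis and hypoxia (red rose, blue fell, dark grey did not pass). The y axis ends at 2.2 either way, which leaves out CDO1. Red points lie at or below 50.6% and blue points at or above 50.9%.

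Glycolysis has further isozymes, branch enzymes and pyruvate regulators. Of 50 such genes, 42 were tested, 12 rose, 6 fell and 24 did not pass, with a median log2 fold change of 0.03. That is 18 of 42 past the threshold, while over all genes tested 24% passed, and 36.3% of those whose mean reached 100. PDP1, the phosphatase that switches pyruvate dehydrogenase back on, averaged 5674 ± 192 in the CDO1 libraries and 10885 ± 365 in the mock libraries (SD, n = 3 each) and fell at a log2 fold change of -0.94 ± 0.05 (SE, adjusted p = 3.47e-11). PDK2, another pyruvate dehydrogenase kinase, fell to 193 ± 2.42 in the CDO1 libraries, against 330.2 ± 25.8 in the mock libraries (SD, n = 3 each), opposite in direction to PDK1. FBP1, the gluconeogenic fructose bisphosphatase, rose 1.55-fold, at 519 ± 13.7 in the CDO1 libraries, against 334 ± 20.3 in the mock libraries. SLC16A7, the monocarboxylate transporter MCT2, was at 29.5 ± 6.44 in the CDO1 libraries, against 92.04 ± 12.8 in the mock libraries, and fell by 1.62 on the log2 scale. PFKFB2 rose by 0.36 and the phosphoglucomutase PGM2 by 0.27 on the log2 scale. The adjusted p in limma was 0.00161 or less for PDK2, FBP1, SLC16A7, PFKFB2 and PGM2. Both subunits of the mitochondrial pyruvate carrier, named after their values were seen, rose as well, MPC1 by 0.31 (adjusted p = 0.00459 in limma) and MPC2 by 0.35 (adjusted p = 0.00261).

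The oxygen-sensing machinery was measured beside its targets. Of 20 genes, 3 rose, 3 fell and 14 did not pass, so 6 of 20 passed, beside the same 24% and 36.3% over all genes. HIF1A, the oxygen-regulated subunit of HIF-1, had 2501, 2292 and 2475 normalised counts in the CDO1 libraries, against 2565, 2273 and 2707 in the mock libraries, with a log2 fold change of -0.05 ± 0.06 (SE, adjusted p = 0.624) and a 95% interval of -0.18 to 0.08. HIF-1 is controlled mainly through protein stability, which transcript counts do not measure. EPAS1, which encodes HIF-2α, had 1554, 1492 and 1536 in the CDO1 libraries, against 1406, 1330.3 and 1301 in the mock libraries, and rose at a log2 fold change of 0.18 ± 0.06 (SE, adjusted p = 0.022). ARNT, the constant partner subunit, was at -0.05 (adjusted p = 0.659) and VHL, the ubiquitin ligase subunit that recognises hydroxylated HIF, at -0.07 (adjusted p = 0.44). CITED2, which competes with HIF for its coactivator, averaged 3479.6 ± 124 in the CDO1 libraries and 2426 ± 108 in the mock libraries (SD, n = 3 each) and rose 1.43-fold. ELOB, an elongin of the VHL complex, rose by 0.27 on the log2 scale. ARNT2 fell by 0.35, the asparaginyl hydroxylase HIF1AN by 0.19 and the ubiquitin ligase SIAH2 by 0.25 on that scale. The adjusted p in limma was 0.0212 or less for CITED2, ELOB, ARNT2, HIF1AN and SIAH2.

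Other genes known to be induced by hypoxia moved in both directions. Of 47, 46 were tested, 10 rose, 11 fell and 25 did not pass, with a median log2 fold change of 0.01. The 21 of 46 past the threshold stand beside 24% of all genes tested and 36.3% of those whose mean reached 100. Without CDO1 replicate 1 the number past the threshold was 13, against 21, and without mock replicate 1 it was 14. Over all genes the numbers were lower too, at 4002 and 4014, against 5229 with all libraries. LOXL2, a lysyl oxidase that crosslinks collagen, fell 2.55-fold to 117 ± 5.15 in the CDO1 libraries, against 298 ± 16.8 in the mock libraries (SD, n = 3 each). The secreted glycoprotein STC2 had a log2 fold change of -1.37, the liprin PPFIA4 one of -1.32 and the transcriptional repressor BHLHE41 one of -1.06. Among those that rose, PLOD2, a lysyl hydroxylase of collagen, stood at 1719 ± 74.2 in the CDO1 libraries, against 1252 ± 92.6 in the mock libraries (log2 fold change 0.46) and RAB20, a small GTPase, at 1119 ± 56.98 in the CDO1 libraries, against 884 ± 24.6 in the mock libraries (log2 fold change 0.34). All 6 had an adjusted p in limma of 3.37e-04 or less.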

How the data were processed

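RNA of 6 KM12 libraries was sequenced. STAR 2.5.1b, DESeq2 1.10.1 and the build GRCh38 are named in the submitters' processing notes. No source used here gives the read counter, its strand setting or the annotation, so overlapping and antisense genes may share reads. The deposited signal columns are counts per gene divided by a size factor per library. Multiplied back by that factor, 100.0% of values came out whole, to a tolerance of 0.001 reads. The log2 fold change, p-value and adjusted p-value are the authors' deposited comparison.

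The main test was limma 3.58.1 (trend) in R 4.3.3 on log2 of the deposited value plus 1, over 21775 genes with a mean of at least 1, adjusted by Benjamini-Hochberg over all of them, with calls at 0.05. Fold values are ratios of mean normalised counts, and log2 fold changes understate scarce genes. edgeR 4.0.16 (quasi-likelihood) on the recovered reads called 5423 genes, and DESeq2 1.42.0 called 4296, against 5229 in limma. Names came from a reference table holding 26577 of 27134 identifiers, while GENCODE 29 (GRCh38), with 26742 of them, gave coordinates, exon lengths and GC content. Promoter windows came from RefSeq on GRCh38.p14. GC trends were lowess curves with a span of 0.3. Fits were tested on simulated data. Alternatives were filters, pseudocounts, scaling, a replicate block, each library left out, and shares without length scaling.

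The genes and lists were chosen with earlier results of these data known. The genes named were all 37 of the set, CDO1, and from each other list the 6 with the smallest p together with HIF1A, EPAS1, ARNT and VHL. MPC1 and MPC2 fall outside this rule and were named after their values were seen. Marker genes and genes that overlap a named one were also given. The limit for a count of 0 covers counting error alone, as the labels name no molecular identifiers that would mark PCR copies.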

Additional observations from a re-analysis of the deposited data

How the results depend on the processing

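Of the 15 called genes, 11 kept their direction and their call in all 16 alternatives run (SLC2A1, SLC2A3, SLC16A1, HK2, ALDOC, PGK1, ENO2, PDK1, ADM, BNIP3 and BNIP3L), and PFKFB4, LDHA, EGLN3 and P4HA1 lost it in 2 to 7 of them without a change of direction. The genes called numbered 11 to 17 with 1 library left out, while all genes called ran from 4002 to 5492. The number called in the oxygen-sensing list was 10 with the GC trend removed, against 6, while that over all genes was 6392, against 5229, and that of other hypoxia-induced genes was 13 to 20 with 1 library left out, against 21; the cause was not tested. Sign changes were limited to genes that did not pass, and again the cause was not tested. With equal library totals the log2 fold change of PFKFB3 was -0.0235, of GAPDH -0.00155 and of P4HA2 -0.0163. With the GC trend removed that of SLC16A3 was 0.00596 and that of P4HA2 -0.0240. With 1 library left out, log2 fold changes ran from -0.0375 to 0.0821 for PFKP, -0.0232 to 0.0312 for PFKFB3, -0.113 to 0.0497 for CA12, -0.0359 to 0.107 for VEGFA and -0.00498 to 0.0245 for P4HA2. With the replicate number as a block in limma, 21 genes passed (12 rose and 9 fell) and 5918 over all genes. Deviations of same-numbered libraries of the groups correlated at 0.0776, 0.299 and 0.0862 for replicates 1, 2 and 3. The 0.299 was the highest of all pairs across the groups. Pairs with unlike numbers ran from -0.238 to 0.189, the latter between CDO1 replicate 1 and mock replicate 3. Whether a shared number marks a pairing cannot be told from these values. CA9 lies under the depth at which a difference could be seen.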
